A study of Homo sapiens with 31 samples.

Results

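The cadherins are calcium-dependent adhesion proteins of the cell surface, and the genes described here are 7 of them: CDH1, CDH2, CDH3, CDH6, CDH11, CDH13 and CDH17. They were chosen by name as classical cadherins and the intestinal cadherin, and all 7 were found among the 17113 protein-coding genes of the count table. They and the gene lists below were chosen with earlier results of these data known. Counts of their calls beside the share over all genes are therefore descriptions. RNA came from 4 colorectal adenocarcinoma cell lines (LoVo, LS1034, HT-29 and HCT 116) and from CCD 841 CoN, a line labelled as normal colon. None of the lines was treated, and no genetic change made by the submitters is labelled. Each line had 3 unmixed libraries. RNA of each cancer line was also mixed into CCD 841 CoN RNA at 0.1, 1, 10 and 50%, with 1 library per mixture, to give samples of known cancer content for a computational separation of the tumour signal. Differences between lines are differences between these 5 lines. Whether a line's 3 libraries were made from separate cultures is not labelled, and p-values then measure only the spread between these libraries, which may be technical.

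Classical cadherins bind their like on the neighbouring cell and hold the cytoskeleton through catenins. CDH1 (E-cadherin) and CDH3 (P-cadherin) are forms of epithelia, while CDH2 (N-cadherin), CDH6 (K-cadherin) and CDH11 (OB-cadherin) are known from neural, kidney, bone and connective tissue cells. CDH13 (T-cadherin) is tied to the membrane by a lipid anchor and lacks the tail that binds catenins, and CDH17 (LI-cadherin) is an intestinal form with a short tail. In the normal colon, CDH1 and CDH17 are made by the epithelium.

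Levels are CPM, a gene's count scaled to a library total of 1000000. The total counts ran from 9688765 to 56741879 over the 31 libraries. The labelled tissue was set against marker genes. The 5 epithelial markers (EPCAM, KRT8, KRT18, KRT19 and CLDN7) summed to 3069 to 24200 CPM in the cancer libraries and to 239 to 315 CPM in CCD 841 CoN. The 5 fibroblast markers (COL1A1, COL1A2, DCN, LUM and PDGFRB) summed to 1.28 to 23.15 CPM in the cancer libraries and to 20590 to 24820 CPM in CCD 841 CoN. CCD 841 CoN therefore carried the fibroblast markers at high levels, and in every contrast with it cancer origin and cell type cannot be told apart. Markers of endothelial and neural cells summed to at most 4.204 CPM in any unmixed library.

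A difference between lines was called where edgeR's adjusted p was below 0.05 and the log2 fold change was at least 1 in size. Against CCD 841 CoN, 3 members were higher and 4 lower in LoVo, where 48.0% of all tested genes were called (26.5% higher, 21.6% lower). In LS1034, 3 were higher and 3 lower, against 47.1% of genes called (25.7% higher, 21.4% lower). HT-29 had 3 higher and 4 lower, against 45.7% (24.7% higher, 20.9% lower). HCT 116 had 2 higher and 4 lower, against 46.7% (25.4% higher, 21.2% lower). In the mean of the 4 cancer lines, which is the mean of their log2 values, 3 were higher and 4 lower, against 47.1% (24.8% higher, 22.3% lower). CDH1 and CDH3 were higher in all 4 cancer lines, and CDH2, CDH6 and CDH11 were lower in all 4. The remaining members differed by line: CDH17 was called higher in LoVo, LS1034 and HT-29, and CDH13 was called lower in LoVo, HT-29 and HCT 116. The plot of levels by library shows the cancer lines and CCD 841 CoN on opposite sides for CDH1, CDH2, CDH3, CDH6 and CDH11. Over all tested genes, 33.9% likewise had no overlap between the cancer libraries and those of CCD 841 CoN. For a single cancer line against CCD 841 CoN the share was 64.6 to 69.8%, and between cancer lines it was 34.0 to 46.9%.

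**Figure D1:**
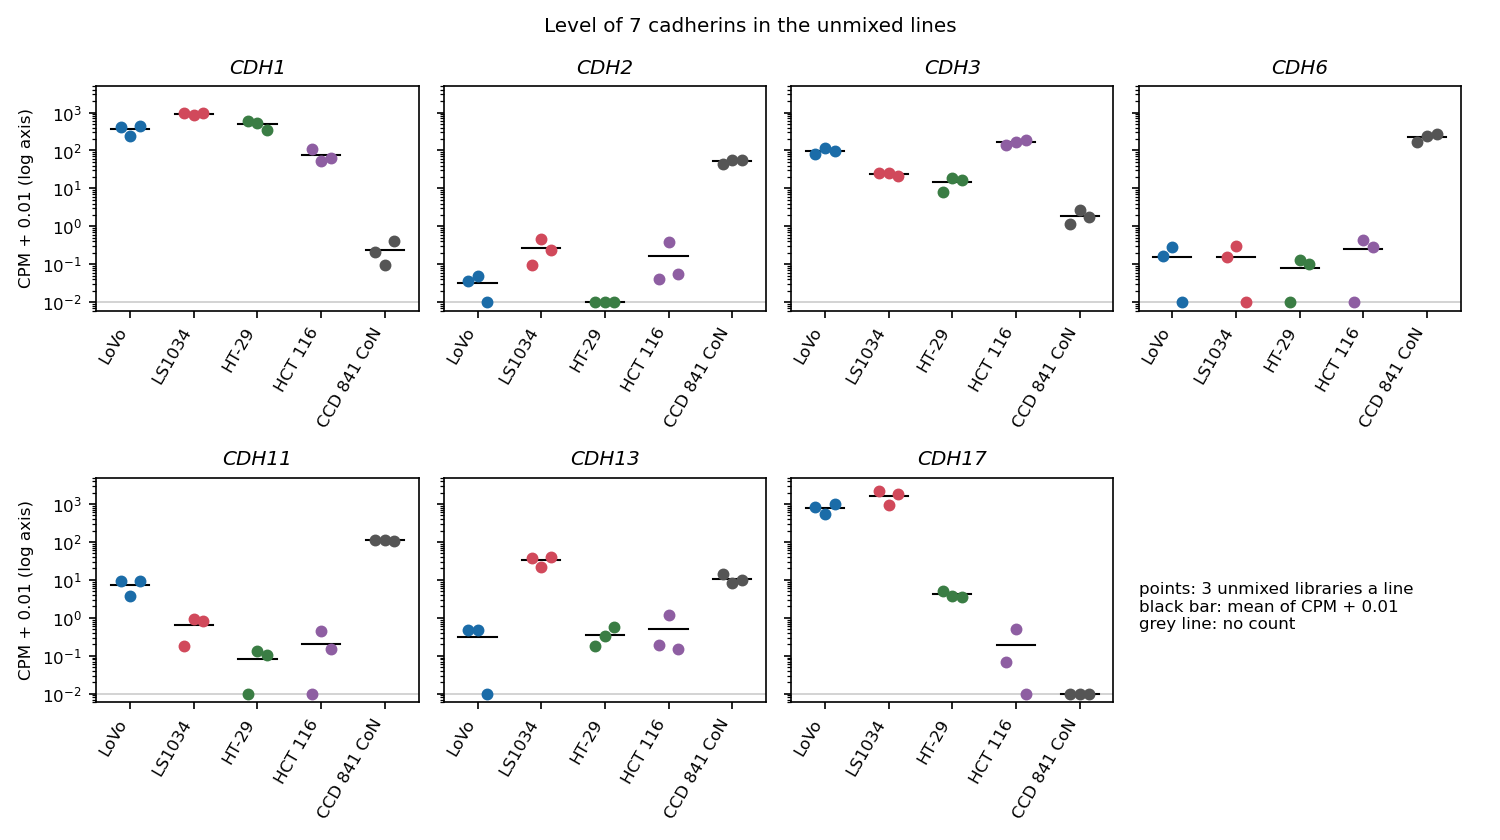
Level of each of the 7 cadherins in the 15 unmixed libraries, as CPM plus 0.01 on a log axis, with 3 points per line and a bar at the mean. CDH1 sat at 54.0 CPM or above in every cancer library and at 0.413 CPM or below in CCD 841 CoN, while CDH6 sat at 0.437 CPM or below in the cancer libraries and at 163 CPM or above in CCD 841 CoN.

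CDH1 encodes E-cadherin, the main adhesion protein of epithelial junctions. Its level in LS1034 was 950, 835 and 981 CPM in replicates 1 to 3. HT-29 gave 616, 520 and 349 CPM, and LoVo gave 407, 241 and 452 CPM. HCT 116 was the lowest of the cancer lines, at 111, 54.0 and 64.3 CPM, and its 3 libraries lay below those of the other cancer lines without overlap. The CCD 841 CoN libraries held 5, 1 and 4 counts, or 0.203, 0.0857 and 0.413 CPM. In HCT 116 the mean of 76.3 ± 30.2 CPM (SD, n = 3) was still 326-fold that of CCD 841 CoN (log2 fold change 8.11 ± 0.54 SE, adjusted p = 1.0e-08). In LS1034 the ratio was 3943 (log2 fold change 11.72 ± 0.59, adjusted p = 6.3e-10). Without CCD 841 CoN replicate 3 these ratios were 529 and 6388.

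The order of CDH1 from high to low was LS1034, HT-29, LoVo and HCT 116, and 4 of the 6 pairs of cancer lines were called. LS1034 exceeded HCT 116 by 12.1-fold (log2 fold change 3.62 ± 0.39, adjusted p = 2.8e-06). HT-29 exceeded HCT 116 by 6.49-fold (adjusted p = 3.8e-05), LoVo exceeded HCT 116 by 4.80-fold (adjusted p = 0.00026), and LS1034 exceeded LoVo by 2.51-fold (adjusted p = 0.0079). Neighbours in the order were not all apart: HT-29 and LoVo overlapped (log2 fold change of LoVo against HT-29 -0.49 ± 0.35, adjusted p = 0.31). LS1034 and HT-29 did not overlap, but the difference of 0.88 ± 0.35 on the log2 scale missed the threshold (adjusted p = 0.079).

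CDH3 encodes P-cadherin, which is found in basal layers of stratified epithelia. HCT 116 had the highest level, with 138, 163 and 189.5 CPM. LoVo followed with 78.7, 117 and 95.7 CPM, LS1034 with 25.2, 25.5 and 20.7 CPM, and HT-29 with 7.83, 19.1 and 17.04 CPM. In CCD 841 CoN the 3 libraries gave 1.18, 2.74 and 1.75 CPM, below every cancer library. The ratio to CCD 841 CoN was 86.4 in HCT 116 (log2 fold change 6.15 ± 0.41, adjusted p = 1.1e-08), and the smallest, in HT-29, was 7.75 (log2 fold change 2.73 ± 0.36, adjusted p = 1.2e-05). The cancer line lowest in CDH1 was thus the highest in CDH3.

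HCT 116 and LoVo, the neighbours at the top of the CDH3 order, did not overlap, and their difference was not called (log2 fold change of LoVo against HCT 116 -0.78 ± 0.32, adjusted p = 0.086). LS1034 and HT-29, at the bottom, also did not overlap and were not called (0.67 ± 0.32, adjusted p = 0.15). The other 4 pairs were called. HT-29 lay 11.1-fold below HCT 116 (log2 fold change -3.42 ± 0.35, adjusted p = 2.6e-06), and LoVo 4.08-fold above LS1034 (1.97 ± 0.33, adjusted p = 0.00028). CDH3 and CDH1 are adjacent coding genes on chromosome 16, at 68645310 to 68733771 and 68737292 to 68835537 of GRCh38, with 3520 bases between them. Their levels nevertheless took different orders over the cancer lines. On the log2 scale CDH1 counts exceeded CDH3 counts by 4.35 to 6.29 in HT-29 and by 5.03 to 5.57 in LS1034, and in HCT 116 the difference was -1.60 to -0.31.

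CDH17 encodes LI-cadherin, the intestinal member. LS1034 libraries held 2140, 948 and 1850 CPM and LoVo libraries 858, 544 and 1002 CPM. HT-29 was far lower, at 5.08, 3.85 and 3.52 CPM. HCT 116 had 2, 10 and 0 counts, or 0.0606, 0.485 and 0 CPM. CCD 841 CoN had no count in any of 3 libraries, which allows up to 0.0652 CPM at 3 counts over the group. HT-29 and HCT 116 lay below LoVo and LS1034 with no overlap, and HCT 116 below HT-29 with none.

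LoVo and LS1034 overlapped in CDH17 and their difference was not called (log2 fold change of LoVo against LS1034 -1.08 ± 0.48, adjusted p = 0.11). It was called without HCT 116 replicate 2 in the fit (adjusted p = 0.037). The other 5 pairs of cancer lines were called. LS1034 exceeded HCT 116 by 9046-fold (log2 fold change 13.29 ± 0.83, adjusted p = 4.9e-08) and HT-29 by 397-fold (8.60 ± 0.67, adjusted p = 6.0e-07). LoVo exceeded HT-29 by 193-fold (7.52 ± 0.64, adjusted p = 1.6e-06). HT-29 in turn exceeded HCT 116 by 22.8-fold (4.68 ± 0.68, adjusted p = 0.00013). The folds over HCT 116 rest on its replicate 2, which holds 10 of its 12 counts. Without it LS1034 exceeded HCT 116 by 54370-fold (counting interval 15050 to 448900) and HT-29 did by 137-fold (37.9 to 1132), and without HCT 116 replicate 3 HT-29 did by 15.2-fold. Against CCD 841 CoN, HT-29 was at least 63.6-fold higher (adjusted p = 3.1e-05), a bound of 29.5-fold without CCD 841 CoN replicate 1. HCT 116 against CCD 841 CoN was not called (adjusted p = 0.077), and its libraries overlapped with those of CCD 841 CoN at no count. DESeq2 called it (adjusted p = 0.032), as did edgeR without HCT 116 replicate 3 (adjusted p = 0.031).

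CDH2 encodes N-cadherin, a form of neural and mesenchymal cells. CCD 841 CoN held 43.7, 55.3 and 57.4 CPM. The 12 cancer libraries together held 29 counts, from none to 0.458 CPM per library. HT-29 had no count in 3 libraries, LoVo had 1, 1 and 0 counts, HCT 116 had 1, 8 and 1, and LS1034 had 3, 11 and 3. All cancer libraries lay below all CCD 841 CoN libraries. CDH2 was at least 1120-fold lower in HT-29 than in CCD 841 CoN (adjusted p = 1.7e-07) and 203-fold lower in LS1034 (log2 fold change -7.96 ± 0.75, adjusted p = 6.6e-07). The bound for HT-29 was 621-fold and 687-fold without its replicate 1 or 2, and the fold for LS1034 was 335 without its replicate 2.

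Among the cancer lines, 3 pairs were called for CDH2, each on few counts. Log2 values against HT-29, which had no count, depend on the model's prior count. LS1034 was at least 5.51-fold above HT-29 (log2 fold change 5.46 ± 1.46, adjusted p = 0.013), HCT 116 was at least 3.33-fold above HT-29 (adjusted p = 0.033), and LS1034 was 11.5-fold above LoVo with a counting interval of 3.18 to 94.9 (adjusted p = 0.039). All 3 calls depended on single libraries. The bound of LS1034 over HT-29 was 3.35-fold without LS1034 replicate 2 and 3.06-fold and 3.38-fold without HT-29 replicates 1 and 2, and that of HCT 116 over HT-29 was 1.85-fold and 2.04-fold without the latter. LS1034 over LoVo was 6.98-fold without LS1034 replicate 2 and 19.2-fold without LoVo replicate 2. Without LS1034 replicate 2 the adjusted p was 0.056 against HT-29 and 0.21 against LoVo, and without HCT 116 replicate 2 that of HT-29 against HCT 116 was 0.17. Leaving out HT-29 replicate 1 gave 0.052 for LS1034 against HT-29. HT-29 against HCT 116 gave 0.10, 0.087 and 0.051 without HT-29 replicates 1, 2 and 3. LoVo against LS1034 also missed the threshold without any of LoVo replicates 1, 2 and 3 (0.12, 0.078 and 0.084), LS1034 replicate 3 (0.069) and CCD 841 CoN replicate 2 or 3 (0.051 for each). With the replicate number as a block among the cancer lines, a fit without CCD 841 CoN, CDH2 fell under the filter on low counts and was not tested.

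RefSeq promoter sequence was matched for 1 of the 7 members, CDH2, and the bases just before its first start are shown because this gene separates CCD 841 CoN from all 4 cancer lines. The stretch is chr18:28177131-28177380 on the minus strand of GRCh38.p14, read 5′ to 3′ up to the base before the start, with matches to CCAAT and GGGCGG on either strand in capitals.
CDH2 promoter: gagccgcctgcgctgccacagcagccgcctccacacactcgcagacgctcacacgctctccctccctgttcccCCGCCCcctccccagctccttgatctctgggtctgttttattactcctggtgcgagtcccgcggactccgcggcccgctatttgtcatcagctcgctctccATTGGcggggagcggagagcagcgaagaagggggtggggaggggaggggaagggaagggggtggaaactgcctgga
The match to GGGCGG, as CCGCCC, lies at -177 to -172 from the start and that to CCAAT, as ATTGG, at -76 to -72. These letters occur in 42.6% and 32.0% of 35116 promoters of the same length. The stretch holds 17 CG pairs, against a median of 11 over these promoters, and 66.0% of its bases are G or C. CACCTG or its reverse complement CAGGTG, a core known to be bound by SNAI and ZEB factors, occurs in 17.5% of the promoters and not in this stretch. The matches are descriptions of the sequence.

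CDH6 encodes K-cadherin, known from the developing kidney. CCD 841 CoN held 163, 243 and 275 CPM. The 12 cancer libraries held 44 counts in all, from none to 0.437 CPM. Cancer and CCD 841 CoN libraries were far apart, with ratios from 954 in HCT 116 (log2 fold change -10.33 ± 0.82, adjusted p = 5.4e-08) to 3200 in HT-29 (-11.95 ± 0.92, adjusted p = 3.0e-08). CDH6 was the only member not called in any of the 6 pairs of cancer lines, at edgeR adjusted p from 0.29 to 1.0. None of the 6 passed at an unadjusted p under 0.05 (the lowest was 0.17), and DESeq2 called none. The cancer lines held 4 to 15 counts of CDH6 each. The ratio was 1637 in HCT 116 without its replicate 2, and 4906 in HT-29 without its replicate 2, with a counting interval of 880.5 to 193800.

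CDH11 encodes OB-cadherin, a form of osteoblasts and fibroblasts. CCD 841 CoN gave 114, 115 and 107.5 CPM, an SD of 4.005 CPM around a mean of 112. LoVo held 9.09, 3.66 and 9.41 CPM, above every library of the other cancer lines. LS1034 held 0.175, 0.916 and 0.821 CPM, HCT 116 held 0, 0.437 and 0.139 CPM, and HT-29 held 0, 0.120 and 0.0926 CPM. CDH11 was lower than in CCD 841 CoN by 15.2-fold in LoVo (log2 fold change -4.23 ± 0.66, adjusted p = 6.0e-05), 176-fold in LS1034, 584-fold in HCT 116 and 1579-fold in HT-29 (-10.93 ± 0.99, adjusted p = 1.7e-07). Without replicate 2 of the line the fold was 1615 in HCT 116 (counting interval 553 to 7832) and 2421 in HT-29 (434.5 to 95620).

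LoVo exceeded the other cancer lines in CDH11 by 104-fold over HT-29 (log2 fold change 6.71 ± 0.93, adjusted p = 6.1e-05), 38.5-fold over HCT 116 (adjusted p = 0.00011) and 11.6-fold over LS1034 (adjusted p = 0.0011). The fold over HT-29 was 69.4 and 159.5 without HT-29 replicates 1 and 2, and that over HCT 116 was 106 without HCT 116 replicate 2. The sum of the fibroblast markers was 1.52, 5.03 and 1.28 CPM in LoVo, within or below the 4.72 to 23.15 CPM of the other cancer libraries. The reason for the CDH11 level of LoVo was not tested. LS1034 exceeded HT-29 in CDH11 by 8.98-fold (adjusted p = 0.037), and by 13.8-fold without HT-29 replicate 2. That call was lost with the replicate number as a block among the cancer lines (adjusted p = 0.060), a fit without CCD 841 CoN, and held with the block and CCD 841 CoN in the fit (0.041). It was also lost without LS1034 replicate 2 (0.12) or 3 (0.088) or HT-29 replicate 1 (0.15) or 3 (0.063). LS1034 against HCT 116 was not called (adjusted p = 0.11), but was by DESeq2 (0.037), without LS1034 replicate 1 (0.041) and without HCT 116 replicate 2 (0.025).

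CDH13 encodes T-cadherin, the lipid-anchored member. Among the 7, it was the member whose highest line was LS1034 and whose second was CCD 841 CoN. LS1034 held 36.8, 21.7 and 39.04 CPM, above CCD 841 CoN at 14.3, 8.06 and 9.70 CPM. LoVo gave 0.454, 0.483 and 0 CPM, HT-29 0.174, 0.321 and 0.555 CPM, and HCT 116 0.182, 1.16 and 0.139 CPM. LS1034 and CCD 841 CoN did not overlap, and their ratio of 3.04 was not called in the fit of all lines (log2 fold change 1.33 ± 0.65, adjusted p = 0.097). It was called with only the libraries of these lines in the fit (1.23, adjusted p = 0.010). In the other 3 cancer lines CDH13 was lower than in CCD 841 CoN, by 34.2-fold in LoVo (adjusted p = 4.7e-05), 30.6-fold in HT-29 and 21.6-fold in HCT 116. The HCT 116 mean rests on replicate 2, and without it the fold was 66.8.

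LS1034 exceeded LoVo in CDH13 by 104-fold (log2 fold change of LoVo against LS1034 -6.59 ± 0.84, adjusted p = 2.4e-05), HT-29 by 92.8-fold (6.63 ± 0.86, adjusted p = 3.3e-05) and HCT 116 by 65.7-fold (6.15 ± 0.82, adjusted p = 2.6e-05). The fold over HCT 116 was 203 without HCT 116 replicate 2, and that over LoVo was 69.4 without LoVo replicate 3. LoVo, HT-29 and HCT 116 overlapped and none of their 3 pairs was called. None of the 3 passed at an unadjusted p under 0.05 in edgeR, and DESeq2 called none. The mean of the cancer lines, which was called lower (-3.51 ± 0.47, adjusted p = 7.8e-06), thus covers lines on both sides of CCD 841 CoN. The mean CPM of the 12 cancer libraries, 8.42 against 10.7, differed by 1.27-fold.

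Over the pairs of cancer lines, 5 members were called between LoVo and LS1034, where 26.0% of all tested genes were. Between LoVo and HT-29 it was 3 members, against 27.2% of genes, and between LoVo and HCT 116 also 3, against 22.1%. LS1034 and HT-29 differed in 4 members, against 22.6%, LS1034 and HCT 116 in 4, against 32.9%, and HT-29 and HCT 116 in 4, against 30.6%. In the fit with the replicate block, which leaves out CCD 841 CoN and did not test CDH2, 2 in place of 4 members were called higher in LS1034 than in HT-29, since CDH11 also missed the threshold. In that fit 1 in place of 2 was called lower in HT-29 than in HCT 116, the other being CDH2. By member, CDH17 was called in 5 pairs, CDH1, CDH3 and CDH11 in 4 each, CDH2 and CDH13 in 3 each and CDH6 in none. The grid of differences between cancer lines shows at least 3 called members in each of the 6 pairs.

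**Figure D2:**
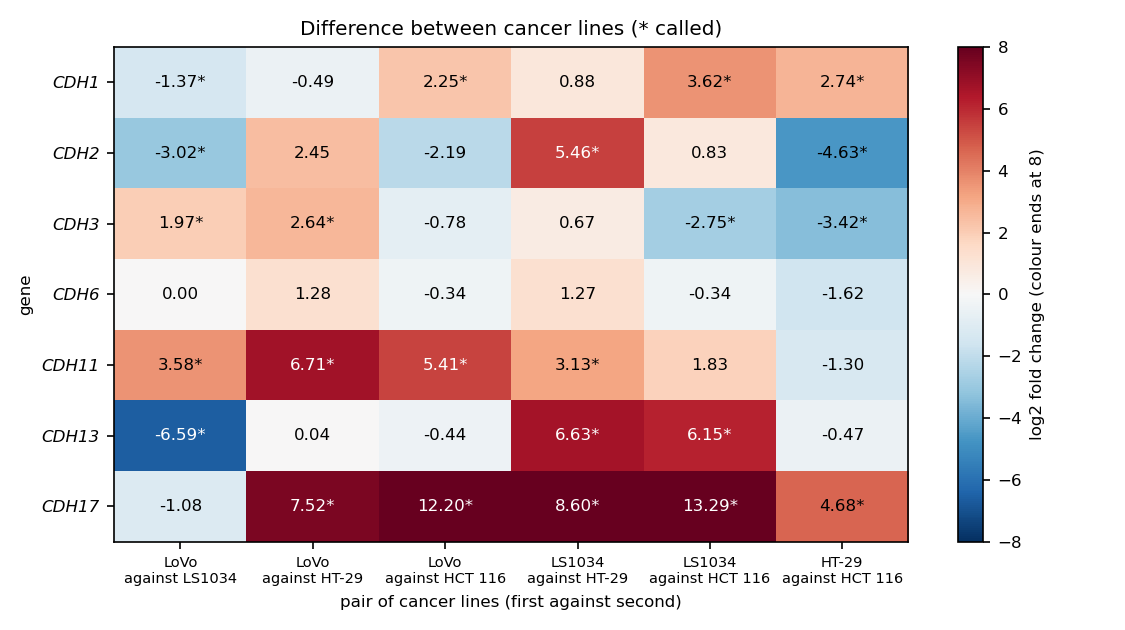
Log2 fold change of each cadherin (rows) between each pair of cancer lines (columns, first line against the second), with an asterisk where the difference was called and the colour scale ending at 8. CDH6 has no asterisk, and the largest value is that of CDH17 in LS1034 against HCT 116, 13.29. The CDH2 values of pairs with HT-29, which had no count, depend on the model's prior count.

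HCT 116 replicate 2 was the highest HCT 116 library for CDH2, CDH6, CDH11, CDH13 and CDH17, with 8, 9, 9, 24 and 10 counts. Without it, 5 members in place of 3 were called higher in LS1034 than in HCT 116, and the added ones were CDH2 (adjusted p = 0.036) and CDH11 (adjusted p = 0.025). The fibroblast marker sum of HCT 116 replicate 2, 8.98 CPM, lay between those of HCT 116 replicates 1 and 3, 4.72 and 22.7 CPM. In other cancer lines replicate 2 was also the highest library for CDH6 (LoVo 0.282, LS1034 0.2915 and HT-29 0.120 CPM). The same held for CDH2 and CDH11 in LS1034 (0.458 and 0.916 CPM), CDH13 in LoVo (0.483 CPM) and CDH11 in HT-29 (0.120 CPM). It did not hold for CDH11 in LoVo or for CDH13 and CDH17 in HT-29. The reason for the higher values of replicate 2 was not tested.

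To set the members beside each other, levels were divided by the length of the gene's exons in GRCh38, as CPM per kilobase. The share of each member in the sum over the 7 then gave the make-up of a line. CDH17 took 73.1% in LoVo and 73.0% in LS1034, and CDH1 took 21.1% and 25.8%. HT-29 was almost all CDH1, at 95.9%, with CDH3 at 2.81% and CDH17 at 1.27%. HCT 116 was led by CDH3, at 67.7%, followed by CDH1 at 31.9%. In CCD 841 CoN CDH6 took 47.6%, CDH2 27.3%, CDH11 21.7% and CDH13 2.48%. The 3 leading cadherins of CCD 841 CoN each took at most 0.196% in any cancer line.

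**Figure D3:**
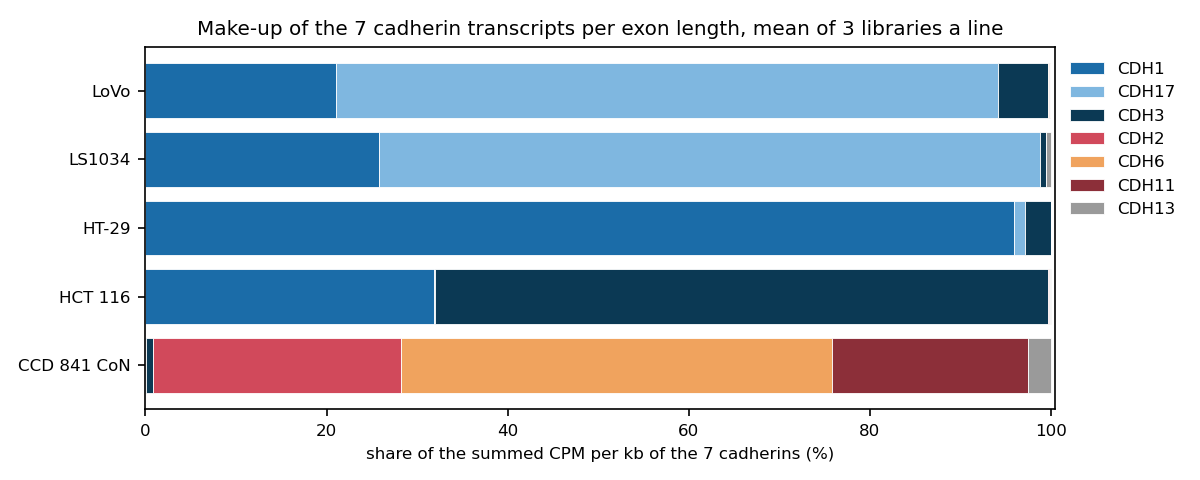
Share of each cadherin in the summed CPM per kilobase of the 7, in percent, from the mean of 3 unmixed libraries of each line. CDH17 and CDH1 fill most of the bars of LoVo and LS1034, CDH1 that of HT-29 (95.9%), CDH3 and CDH1 that of HCT 116, and CDH6, CDH2 and CDH11 that of CCD 841 CoN.

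Per kilobase, CDH17 in LS1034 reached 422 ± 159 CPM (SD, n = 3) and CDH1 149 ± 12.5, without overlap between their libraries. In HCT 116, CDH3 at 26.2 ± 4.16 and CDH1 at 12.4 ± 4.89 CPM per kilobase also did not overlap. CDH3 and CDH13 overlapped in LS1034, at 3.82 and 2.91 CPM per kilobase, as did CDH3 and CDH17 in HT-29, at 2.35 and 1.06. In CCD 841 CoN, CDH6 was at 18.4 ± 4.67, CDH2 at 10.5 ± 1.49 and CDH11 at 8.38 ± 0.299 CPM per kilobase. The order of CDH2 and CDH11 turned when the longest transcript was used as the length, at 12.03 and 16.3 CPM per kilobase. The annotation behind the authors' counts is not given in the sources used here, so these lengths are those of another annotation.

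The genes most like each member were taken by Pearson correlation of log2(CPM + 1) over the 15 unmixed libraries, among 12916 genes of at least 1 CPM on average. The libraries share 5 lines, and the coefficients describe the pattern over lines. The genes were picked for that likeness, so an order of lines shared with a member largely follows from the choice. For CDH1 the nearest were DENND1C (0.99), FERMT1 (0.99), the gene of kindlin-1, and NPNT (0.99). FERMT1 stood at 108, 244.5, 144 and 34.3 CPM in LoVo, LS1034, HT-29 and HCT 116 and at 0.526 CPM in CCD 841 CoN, and so took the CDH1 order with LS1034 highest and HCT 116 lowest of the cancer lines. For CDH17 they were MYO1A (0.99), a myosin of the intestinal brush border, IL33 (0.99), a cytokine, and LCK (0.98), a kinase known from T cells. MYO1A stood at 34.4 and 43.9 CPM in LoVo and LS1034, 1.20 in HT-29 and 0.0465 in HCT 116.

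For CDH3 the most like genes were CYB5D1 (0.98), SBK1 (0.97) and GART (0.97), an enzyme of purine synthesis. SBK1 was at 28.6 CPM in HCT 116, 18.3 in LoVo, 5.19 in LS1034 and 4.70 in HT-29, with no count in CCD 841 CoN, the same order as CDH3. For CDH2 they were NRK, EVC2 and THY1 (1.00 each), and THY1, a surface glycoprotein of fibroblasts, was at 691 CPM in CCD 841 CoN and at most 0.309 CPM on average in a cancer line. For CDH6 they were NID1, CYTL1 and PLPP4 (1.00 each), and NID1, a basement membrane protein, was at 117 CPM in CCD 841 CoN. For CDH11 they were FLT1, GSTM3 and TRPA1 (0.99 each), and FLT1 and TRPA1 like CDH11 had their highest cancer level in LoVo, at 9.38 and 13.3 CPM. For CDH13 they were ZNF486, ZFP3 (0.98 each) and GSPT2 (0.97), and GSPT2 was at 26.9 CPM in LS1034 and 20.6 CPM in CCD 841 CoN.

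Among the partners of the cadherins, 11 catenins and linkers were tested of 12 listed. In the mean of the cancer lines 3 were called higher and 3 lower, where 24.8% of all tested genes were higher and 22.3% lower, so that 6 of 11 called is near the share over all genes. Their median log2 fold change was 0.35 against 0.22 over all tested genes. CTNNB1 (beta-catenin), which binds the cadherin tail and also acts in Wnt signalling, was at 1015 ± 295 CPM in LS1034, 735 ± 41.7 in HCT 116, 521 ± 76.0 in LoVo, 199 ± 73.7 in HT-29 and 217 ± 35.3 in CCD 841 CoN. It was called higher in LS1034 (log2 fold change 1.93 ± 0.28, adjusted p = 2.4e-05) and HCT 116 (1.45 ± 0.27, adjusted p = 0.00037). JUP (plakoglobin), its relative in desmosomes, was called higher in HT-29 (1.88 ± 0.33) and LS1034 (1.69 ± 0.33). HT-29 had the lowest mean CTNNB1 and the highest mean JUP of the cancer lines.

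CTNNA1 (alpha-catenin), the link to actin, was called in none of the 4 lines, with log2 fold changes from -0.95 ± 0.22 in HCT 116 (adjusted p = 0.0019) to 0.41 ± 0.22 in LS1034. CTNND1 (p120-catenin), which steadies cadherins at the membrane, was not called in any either, from -0.23 ± 0.23 in LoVo to 0.99 ± 0.23 in HT-29 (adjusted p = 0.0020). Where the adjusted p of CTNNA1 or CTNND1 was below the threshold, the change lay under the fold limit. VCL (vinculin) was lower in all 4 lines, with log2 fold changes from -3.23 to -2.52, and was at 1171 ± 68.2 CPM in CCD 841 CoN and 213.5 CPM on average in the cancer lines. CTNND2 and CTNNBIP1 were the other genes called lower in the mean, and ARVCF, PKP4 and CTNNA2 were called higher. ARVCF was at 123 ± 35.1 CPM in HT-29 against 5.76 ± 1.45 in CCD 841 CoN. CTNNA2, named after its values were seen, was at 0.300 CPM on average in the cancer lines, with no count in CCD 841 CoN.

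The desmosomal genes include the desmogleins and desmocollins, which are cadherins of another kind of junction. In the mean of the cancer lines 10 of 10 tested genes (11 listed) were called higher, against 24.8% of all tested genes, with a median log2 fold change of 7.29. DSG2 was at 714, 665, 209 and 424.5 CPM in LoVo, LS1034, HT-29 and HCT 116 and at 4.31 CPM in CCD 841 CoN. DSP (desmoplakin) was at 304, 327, 117 and 160.5 CPM in the same order, and DSC2 at 155, 204, 73.1 and 95.3 CPM, with no count of either in CCD 841 CoN. PKP2 and PKP3, which link desmosomes to keratin, were at 229 and 204 CPM on average in the cancer lines and at 3.69 and 2.63 CPM in CCD 841 CoN. DSG3, of stratified epithelia, was at 75.4 CPM in LoVo and 6.60 CPM in LS1034 and was not called in HT-29 and HCT 116.

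The transcription factors known to repress CDH1 were lower in the cancer lines. All 6 tested were called lower in the mean, against 22.3% of all tested genes, with a median log2 fold change of -7.89. ZEB1 was at 137.5 ± 23.1 CPM in CCD 841 CoN, at 6.47 ± 2.49 CPM in HCT 116 and at most 0.591 CPM on average in the other cancer lines. ZEB1 was thus highest in the cancer line lowest in CDH1. Against HCT 116, its log2 fold change was -3.48 ± 0.60 in LoVo (adjusted p = 0.00044), -4.04 ± 0.63 in LS1034 (adjusted p = 0.00010) and -3.37 ± 0.60 in HT-29 (adjusted p = 0.00042). TWIST1 also had its highest cancer mean in HCT 116, at 1.48 CPM against at most 0.0416. SNAI2 was at 105 ± 21.4 CPM in CCD 841 CoN and highest of the cancer lines in LS1034, at 4.79 ± 3.40 CPM. ZEB2 was at 61.9 ± 12.04 CPM in CCD 841 CoN and at most 0.673 CPM on average in a cancer line, also in LS1034. LS1034 was the cancer line highest in CDH1, so SNAI2 and ZEB2 did not share the pattern of ZEB1. SNAI1 had its highest cancer mean in HCT 116 and was not called in LS1034 and HCT 116. Whether any of these factors sets the CDH1 level of a line was not tested. TWIST2 had no count in 12 cancer libraries and 8.06 CPM in CCD 841 CoN.

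**Figure D4:**
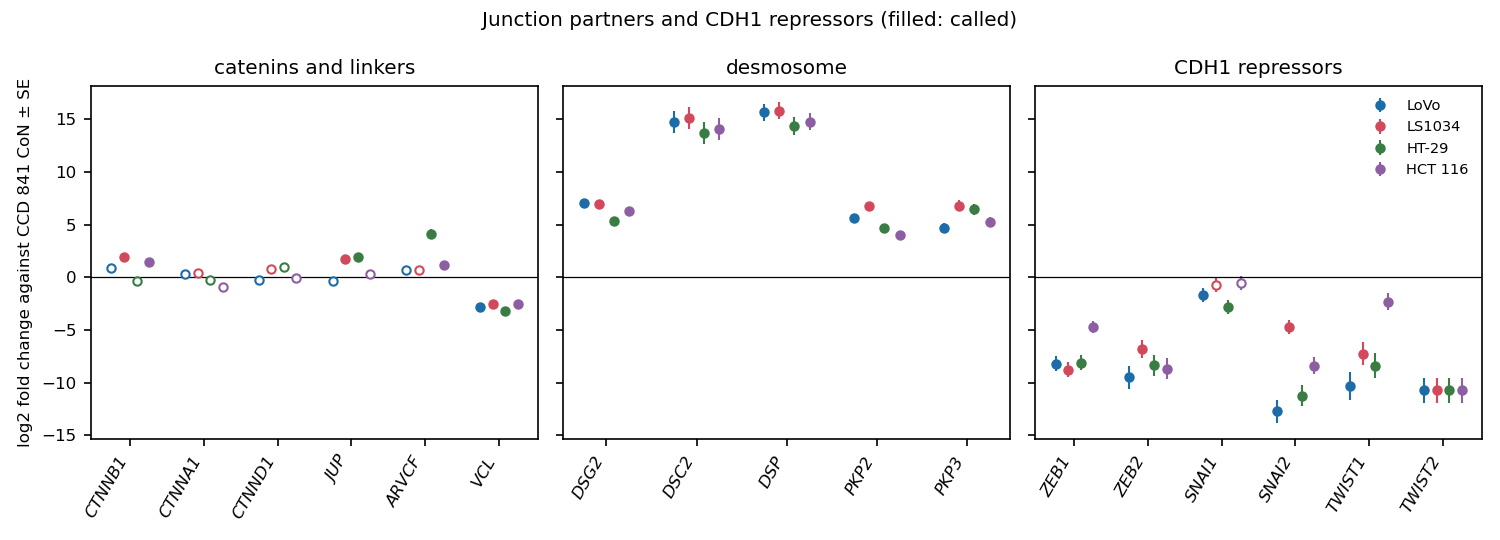
Log2 fold change against CCD 841 CoN, with its SE, of 6 catenins and linkers, 5 desmosomal genes and 6 repressors of CDH1 in the 4 cancer lines, filled where called. CTNNA1 and CTNND1 lie within 1 of 0 in all 4 lines, the desmosomal genes above 0 and VCL and the repressors below; values of genes with no count in CCD 841 CoN (DSC2, DSP) or in a cancer line (TWIST2, and TWIST1 in LoVo) depend on the model's prior count.

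Among nectins and afadin, which form the adhesion system beside the cadherins, 3 of 5 tested genes were called higher in the mean and 1 lower, against 24.8% and 22.3% of all tested genes. NECTIN1 was at 12.2 CPM on average in the cancer lines against 1.02 CPM in CCD 841 CoN, AFDN at 47.45 against 7.43, and NECTIN4 at 7.58 against 0.165. NECTIN3 was the gene called lower, at 31.3 against 51.8 CPM, with 0.486 CPM in LS1034 and 86.6 CPM in HCT 116. Of 13 other cadherins in the table (15 listed), 7 were tested, and CDH4 and CDH15 were called lower in the mean by edgeR (22.3% of all tested genes were) with none called higher. At an unadjusted p under 0.05 CDH12 was also higher, and DESeq2 called 1 gene of the list higher. CDH4 (R-cadherin) was at 10.1 CPM in CCD 841 CoN and 0.104 CPM in the cancer lines. CDH15 was at 1.61 CPM in CCD 841 CoN. Its cancer means were 0.2005 CPM in LoVo, 0.4635 in LS1034 and 0.172 in HT-29, but 1.74 in HCT 116, which was not lower. CDH15 and CDH12 were named after their values were seen, and CDH12 was called higher in LoVo, at 7.04 ± 4.06 CPM with no count in CCD 841 CoN (adjusted p = 0.0010). CDH5 and CDH19 were not analysed here.

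In the mixtures a gene was called at the adjusted p alone, with the 4 lines as the replicates of a percentage. At 1% against 0.1%, 2 members were called, CDH1 and CDH17, both higher, where 0.939% of all tested genes were called. At 10% these 2 members were called higher again, against 7.39% of genes (6.21% higher). At 50%, 6 members were called, against 54.2% of genes (30.1% higher, 24.1% lower): CDH1, CDH3 and CDH17 were higher and CDH2, CDH6 and CDH11 lower. CDH13 was not called at any percentage. The 3 contrasts share the 0.1% mixtures.

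CDH1 in the 0.1% mixtures was 0.907 CPM (LoVo), 2.66 (LS1034), 2.25 (HT-29) and 0.229 (HCT 116), the last from 3 counts. At 1% it was 5.64, 12.5, 8.97 and 1.76 CPM in the same order of lines. At 10% it was 37.1, 146, 64.7 and 9.52 CPM, and at 50% 221, 564, 196 and 30.6 CPM. Within each line CDH1 was higher at each higher percentage. Against 0.1% the rise was 2.40 ± 0.27 on the log2 scale at 1% (adjusted p = 0.00030), 5.29 ± 0.27 at 10% (adjusted p = 2.2e-08) and 7.19 ± 0.28 at 50% (adjusted p = 5.1e-10). With no term for the line the call at 1% was lost (adjusted p = 1.0).

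CDH17 in the LS1034 mixtures was 3.09, 31.2, 231 and 966 CPM from 0.1 to 50%, and in the LoVo mixtures 0.884, 7.54, 78.1 and 451 CPM. In the HT-29 mixtures it had no count at 0.1 and 1%, then 45 counts (2.34 CPM) at 10% and 58 counts (1.06 CPM) at 50%. The HCT 116 mixtures had no count at 0.1, 1 and 10% and 1 count at 50%. CDH17 was thus higher at each higher percentage of LS1034 and LoVo RNA, with at most 2.34 CPM in the HT-29 and HCT 116 mixtures. Its rise at 1% (log2 fold change 3.202 ± 0.55, adjusted p = 0.0087) was lost without the LoVo mixtures (adjusted p = 0.15) or the LS1034 mixtures (0.42), by DESeq2 (1.0) and with no term for the line (1.0). At 10% it was lost with no term for the line (adjusted p = 0.21).

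The level expected in a mixture was computed from the percentage and the unmixed means. Over pairs of a member and a mixture with an expected count of at least 20, 83 of 103 lay within 1.5-fold of expectation. For CDH17 it was 6 of 9 pairs, with ratios of observed to expected from 0.511 to 1.89, and for CDH1 9 of 14, from 0.790 to 2.30 with a median of 1.31. These ranges leave out pairs of lower expected count. For CDH1 they were the 0.1% mixtures of HT-29 (49 counts against 15.9 expected, a ratio of 3.08) and HCT 116 (0.740). For CDH17 they included the HT-29 10% mixture, at a ratio of 5.65. LoVo mixtures gave CDH17 ratios of 1.10, 0.941, 0.975 and 1.13 from 0.1 to 50%, and LS1034 mixtures 1.88, 1.89, 1.40 and 1.17. The cancer share of the mixtures was also estimated from genes other than the cadherins that are high in the cancer line. From 0.1 to 50% it was 0.157, 1.44, 13.6 and 56.0% for LS1034 and 0.138, 1.07, 10.3 and 48.3% for LoVo. For HT-29 it was 0.205, 1.81, 15.35 and 57.3%, and for HCT 116 0.145, 1.23, 11.3 and 51.3%. With that share in place of the nominal percentage, 8 of 9 pairs of CDH17 and 12 of 15 of CDH1 lay within 1.5-fold. The lowest ratios among the counted pairs, both of the HT-29 50% mixture, fell from 0.790 to 0.689 for CDH1 and from 0.511 to 0.4455 for CDH17. With TMM-scaled CPM, 5 of 9 pairs of CDH17 and 6 of 14 of CDH1 lay within 1.5-fold, with median ratios of 1.36 and 1.62.

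The HT-29 10% mixture stood apart in CDH17. Its 2.34 CPM (95% exact Poisson interval 1.71 to 3.14, counting error only) was 5.65 times the expected 0.415 CPM and above the 1.06 CPM (0.805 to 1.37) of the 50% mixture.

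CDH3 was 2.81, 2.04, 10.1 and 53.6 CPM in the LoVo mixtures from 0.1 to 50% and 1.61, 4.96, 20.5 and 88.7 CPM in those of HCT 116. In LS1034 mixtures it was 1.55, 1.90, 3.31 and 11.3 CPM, and in HT-29 mixtures 5.82, 2.02, 6.04 and 13.1 CPM. CDH3 has a level of its own in CCD 841 CoN, 1.89 CPM on average, which sets the level expected at 0.1%. The HT-29 0.1% library had 127 counts where 41.5 were expected, a ratio of 3.06. The rise was called at 50% (log2 fold change 3.23 ± 0.55, adjusted p = 0.00023) and not at 10% (1.33 ± 0.52, adjusted p = 0.18), where it was called without the HT-29 mixtures (2.05, adjusted p = 0.035). Of 16 pairs 13 lay within 1.5-fold of expectation, and the other 3 were HT-29 mixtures.

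**Figure D5:**
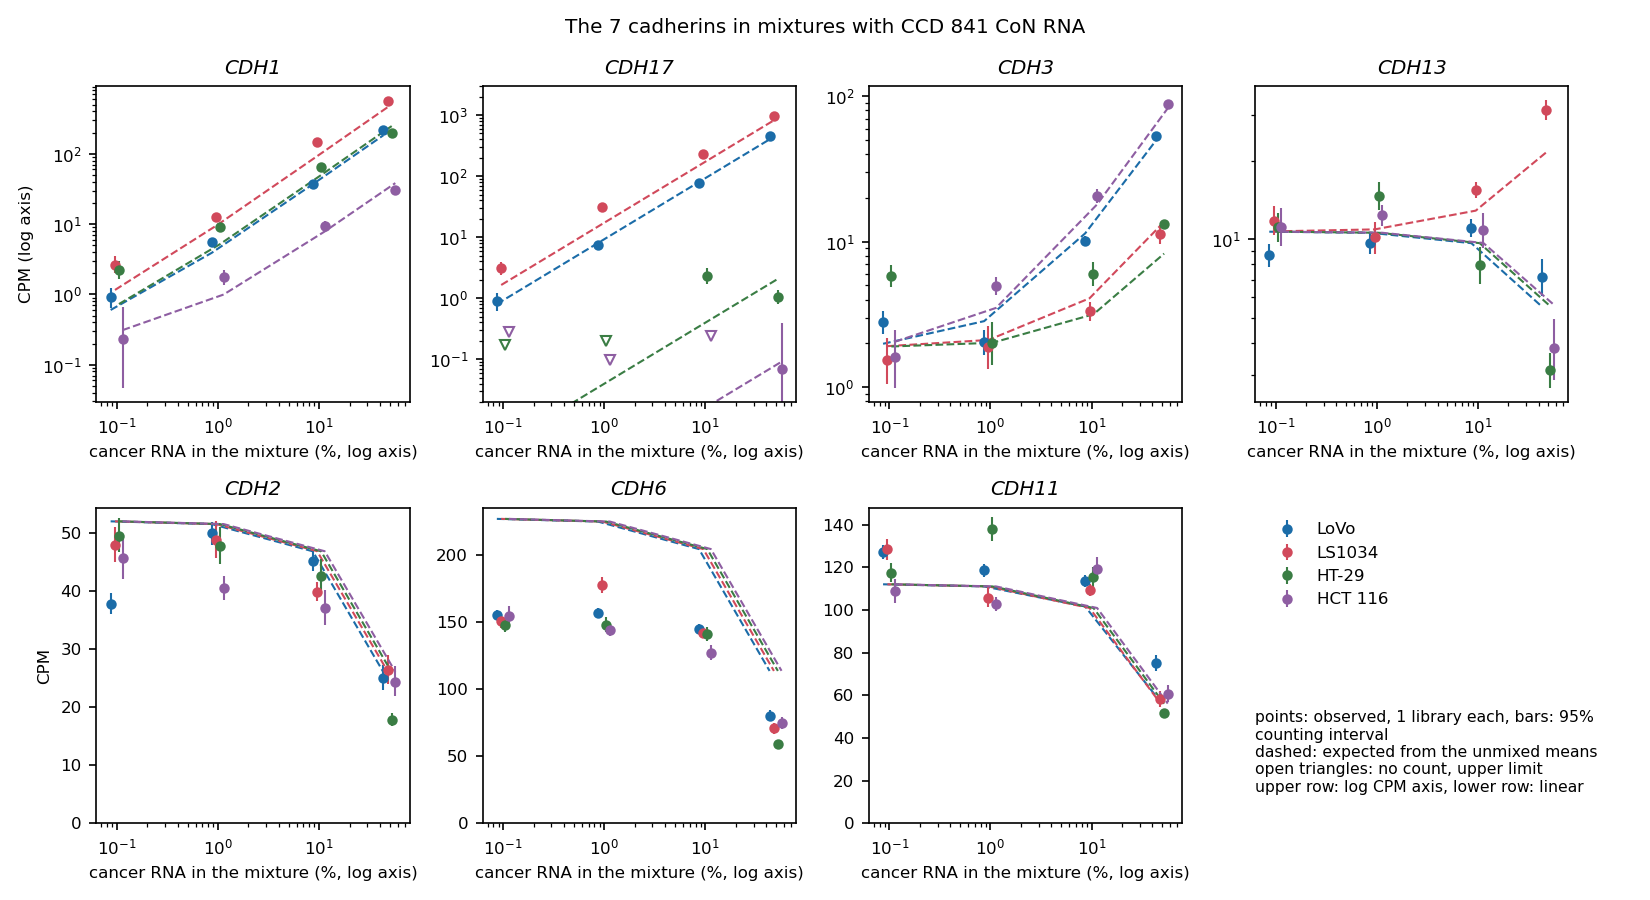
Level of each cadherin in the 16 mixtures (points, with the 95% counting interval) and the level expected from the unmixed means (dashed), against the percentage of cancer RNA on a log axis, the 4 lines set slightly apart sideways. CDH1 climbs with the cancer share in every line, CDH2 and CDH11 lie within 1.5-fold of their dashed lines, and all 16 points of CDH6 lie below theirs, at 0.522 to 0.791 of expectation.

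CDH2, CDH6 and CDH11, the members led by CCD 841 CoN, were lower in the 50% mixtures. CDH2 was 37.9, 48.0, 49.6 and 45.8 CPM at 0.1% in the mixtures of LoVo, LS1034, HT-29 and HCT 116, and 25.1, 26.4, 17.8 and 24.4 CPM at 50%. CDH11 was 127, 128, 117 and 109 CPM at 0.1%, and 74.99, 58.3, 51.7 and 60.6 CPM at 50%. The 0.1 and 50% mixtures did not overlap in CDH2 or CDH11, nor did they in 41.7% of all tested genes. The log2 fold change was -1.08 ± 0.13 for CDH2 (adjusted p = 1.1e-05) and -1.10 ± 0.11 for CDH11 (adjusted p = 1.6e-06). Ratios to expectation lay at 0.684 to 1.01 for CDH2 and 0.922 to 1.25 for CDH11, all 16 pairs of each within 1.5-fold.

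CDH6 was 156, 151, 148 and 155 CPM at 0.1% and 80.2, 70.9, 59.3 and 74.5 CPM at 50% in the same order of lines (log2 fold change -1.22 ± 0.08, adjusted p = 5.1e-08). All 16 mixtures lay below expectation, with ratios from 0.522 to 0.791 and a median of 0.674, and 8 of 16 were within 1.5-fold. The unmixed CCD 841 CoN libraries differ in CDH6, and the 0.1% mixtures were nearest to replicate 1 at 163 CPM. With replicate 1 alone as the reference, an alternative chosen after the data were seen, 16 of 16 pairs lay within 1.5-fold, with a median ratio of 0.939. With replicate 2 alone it was 1 of 16 and with replicate 3 alone 0 of 16. Replicate 1 was the library nearest to the mixtures, so these counts largely follow from the choice. The reason for the CDH6 levels below expectation was not tested. For CDH3 replicate 1 alone gave 9 of 15 pairs within 1.5-fold, against 13 of 16 with the mean of the 3. For CDH13 it gave 12 of 16, against 15 of 16.

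CDH13 was 11.8, 10.2, 15.5 and 31.3 CPM in the LS1034 mixtures from 0.1 to 50%, with the highest value at 50%. In the other mixtures it was 8.68, 11.1 and 11.2 CPM at 0.1% and 7.13, 3.14 and 3.81 CPM at 50% (LoVo, HT-29 and HCT 116). The lines thus went in opposite directions, and the contrast of 50% with 0.1% was not called (log2 fold change -0.43 ± 0.48, adjusted p = 0.47). Without the LS1034 mixtures it was called lower (-1.30, adjusted p = 0.0079). The 50% mixture of LS1034 lay above expectation by a ratio of 1.45, and that of HT-29 below it, at 0.569.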

How the data were processed

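RNA of 5 cell lines (15 unmixed libraries) and of 16 mixtures was sequenced after removal of ribosomal RNA with a stranded kit, per the labels' protocols. The authors deposited a table of whole read counts per gene (17113 genes, 31 libraries), made with STAR and featureCounts on hg19, per the submitters' processing notes; versions, annotation and strand setting are not given in the sources used here, so antisense reads cannot be told apart. Groups came from the library labels. Total counts were 9688765 to 37418506 in the unmixed libraries and 13075811 to 56741879 in the mixtures, and each column of values was used.

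Counts were scaled by TMM, filtered with filterByExpr and tested with the quasi-likelihood test of edgeR 4.0.16 (R 4.3.3, limma 3.58.1), on all 15 unmixed libraries (14452 genes) or all 16 mixtures with terms for percentage and line (13212 genes). P-values were adjusted by Benjamini-Hochberg over all tested genes. Each SE is the size of the log2 fold change divided by the square root of edgeR's F statistic. Alternatives were DESeq2 1.42.0, its size factors, library size only, no filter, a replicate block, other sets of libraries and each library left out. Same-numbered libraries of the cancer lines deviated together in 18 of 18 pairs (r 0.175 to 0.544). Those of a cancer line and CCD 841 CoN did not (r -0.0408 to 0.0217). The numbers were thus read as pairing the cancer lines. The main fit of the unmixed libraries has no term for this pairing, which entered only the alternatives with a replicate block. Scripts were tested on simulated data.

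Folds are ratios of mean CPM, bounded at 3 counts over a group where a group held none. Intervals are exact Poisson at 95% and cover counting error only. Expected mixture levels used the nominal percentage, and cancer shares were estimated from genes with a log2 fold change of at least 5 and at least 5 CPM in the line. CDH1 to CDH3 count differences had 0.5 added to each count. Lengths and positions came from the GRCh38 annotation, not the build of the files.

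The members and gene lists were chosen with earlier results of these data known. Named were the 7 members, CTNNB1, CTNNA1, CTNND1 and JUP, up to 4 called genes per list with the lowest adjusted p and libraries that did not overlap, up to 2 called against the list's majority and the 3 genes most like each member. Other genes were named after their values were seen, namely CTNNA2, PKP4, DSC2, DSC3, DSG1, DSG3, DSG4, PKP1, SNAI1, TWIST2, NECTIN4, CDH12 and CDH15.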

Additional observations from a re-analysis of the deposited data

Results flagged for a closer look

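For 6 of the 7 members a difference between cancer lines was called in a direct test of one line against another. In a single pair 22.1 to 32.9% of all tested genes were called, and the share called in any pair was not computed. The widest called difference of each member is given here as a log2 fold change with its SE and edgeR adjusted p. CDH1 was 3.62 ± 0.39 higher in LS1034 than in HCT 116 (adjusted p = 2.8e-06), and CDH17 was 13.29 ± 0.83 higher between the same lines (adjusted p = 4.9e-08). CDH2 was 5.46 ± 1.46 higher in LS1034 than in HT-29 (adjusted p = 0.013), on 17 counts against none. That size depends on the model's prior count, and the ratio of CPM was bounded only at 5.51-fold or more. That call was lost without LS1034 replicate 2 (adjusted p = 0.056) or HT-29 replicate 1 (0.052), and the fit with the replicate block did not test CDH2. CDH13 was 6.63 ± 0.86 higher between the same lines (adjusted p = 3.3e-05). For CDH3 in HT-29 against HCT 116 the value was -3.42 ± 0.35 (adjusted p = 2.6e-06). CDH11 was 6.71 ± 0.93 higher in LoVo than in HT-29 (adjusted p = 6.1e-05).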

How the results depend on the processing

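Of 66 member calls, 59 kept their call and direction under every alternative that tested them, and 7 were lost under at least 1. None of 1275 alternative values reversed, and 24 missed the threshold. The cause of the changes below was not tested, except that fits on fewer libraries left some low genes untested.

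Against CCD 841 CoN, in the mean of the cancer lines, library size only called 5 catenins and linkers higher in place of 3 (2 to 4 with a library left out). Other cadherins higher went from 0 to 1 with library size only, with DESeq2 and without HT-29 replicate 1 or HCT 116 replicate 1 or 3 (0 to 1 with a library left out), and those lower from 2 to 4 with no filter. Scaling by library size moved the median of all genes by up to 0.33, and the share of calls that were higher from 55.1 to 65.2% in LoVo, 54.5 to 64.9% in HCT 116 and 84.0 to 97.2% at 10% cancer RNA.

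Between cancer lines, the replicate block and the fit on the compared lines alone each gave 2 in place of 4 members higher in LS1034 than in HT-29 (2 to 4 with a library left out, the 2 without LS1034 replicate 2 or HT-29 replicate 1) and 1 in place of 2 lower in HT-29 than in HCT 116 (1 to 2, the 1 without any HT-29 replicate or HCT 116 replicate 2). LS1034 against HCT 116 gave 3 to 5 higher. Neither of these fits tested CDH2, and that on the compared lines did not test CDH11 between LS1034 and HT-29. In the block fit among the cancer lines CDH11 in that pair missed the threshold (adjusted p = 0.060), and no other member call it tested changed. A replicate block with CCD 841 CoN kept in the fit changed no member call.

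In the mixtures, 1 member was called higher at 1% with DESeq2 and 0 with no term for line, against 2 (1 to 2 without the mixtures of a line). Genes called at 1% fell from 124 to 6 with no term for line and were 61 to 116 without a line (72 without LoVo, 61 without LS1034, 74 without HT-29). At 10%, with no term for line, 1 member was called higher in place of 2 and 502 genes in place of 976, and 556 to 725 genes were called without a line (643 without LoVo, 595 without LS1034, 556 without HT-29). Of pairs of a member and a mixture, 74 of 103 lay within 1.5-fold of expectation with TMM-scaled CPM, 91 of 104 with the share from marker genes, 76 of 89 at an expected count of at least 100 and 72 to 89 of 103 with a CCD 841 CoN library left out. With CCD 841 CoN replicate 1, 2 or 3 alone as reference, chosen after the data were seen, it was 84 of 102, 66 of 102 and 72 of 103.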
